A study of Mus musculus with 15 samples.

Results

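The genes described here are 9 receptors through which hormones, transmitters and lipid mediators set the tone of blood vessels: the angiotensin II receptor Agtr1a, the endothelin receptors Ednra and Ednrb, the alpha-1 adrenoceptors Adra1a, Adra1b and Adra1d, the vasopressin receptor Avpr1a, the prostacyclin receptor Ptgir and the thromboxane receptor Tbxa2r. They were taken by name, with no threshold on a measured value, though earlier results of these data were known, and all 9 had a probe set among the 25206 on the array. Expression was measured with Affymetrix Mouse Gene 2.0 ST arrays in 15 samples, 3 in each of 5 groups. The cultured groups came from a single mouse induced pluripotent stem cell (iPSC) line carrying an Acta2hrGFP reporter, a green fluorescent protein tied by its name to Acta2, the smooth muscle actin gene. They were undifferentiated iPSCs at day 0, cells sorted as Kdr+ mesodermal progenitors at day 5, and cells sorted at day 13 into a GFP+ and a GFP- fraction as candidate smooth muscle cells (SMCs). Kdr, also called Flk-1, is a receptor for vascular endothelial growth factor that marks early mesoderm. Primary SMCs from mouse aorta, also selected as GFP+, served as the reference for the mature cell. The labels give no age, strain or treatment for any group, and no number of animals behind an aortic sample. They call the samples biological triplicates and say no more of their origin, so the p-values measure the spread between these samples.

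These receptors sit in the cell membrane and pass a signal inward through heterotrimeric G proteins. Most of the constrictor receptors, among them those for angiotensin II, endothelin, noradrenaline, vasopressin and thromboxane, act through Gq and its relatives, which activate phospholipase C, release calcium from internal stores and, through RhoA and its kinases, keep the contractile apparatus engaged. The prostacyclin receptor works the other way, through Gs, adenylyl cyclase and cyclic AMP, and relaxes the vessel. In arteries the endothelin receptor encoded by Ednra is carried mainly by smooth muscle, whereas Ednrb is found on endothelium as well and in many embryonic cell types.

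In these data the 9 receptors fell into 2 patterns. Ednra and Ednrb rose in culture and at day 13 stood at levels whose difference from aortic SMCs did not pass the test in the GFP+ cells. The other 7 moved by at most 0.83 on the log2 scale between the cultured stages compared, and each was called higher in aortic than in day 13 GFP+ cells, by between 0.49 and 3.46. For Adra1a and Adra1b that call was not firm, since it was missing in 8 and 7 of 12 alternative fits. Values are log2 expression values as deposited, 1 per probe set and sample. A difference was called when its limma p-value, adjusted by Benjamini and Hochberg over all 25206 probe sets, was under 0.05. Since probe sets differ in how strongly they bind, a level is compared only between groups for the same gene.

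**Figure D1:**
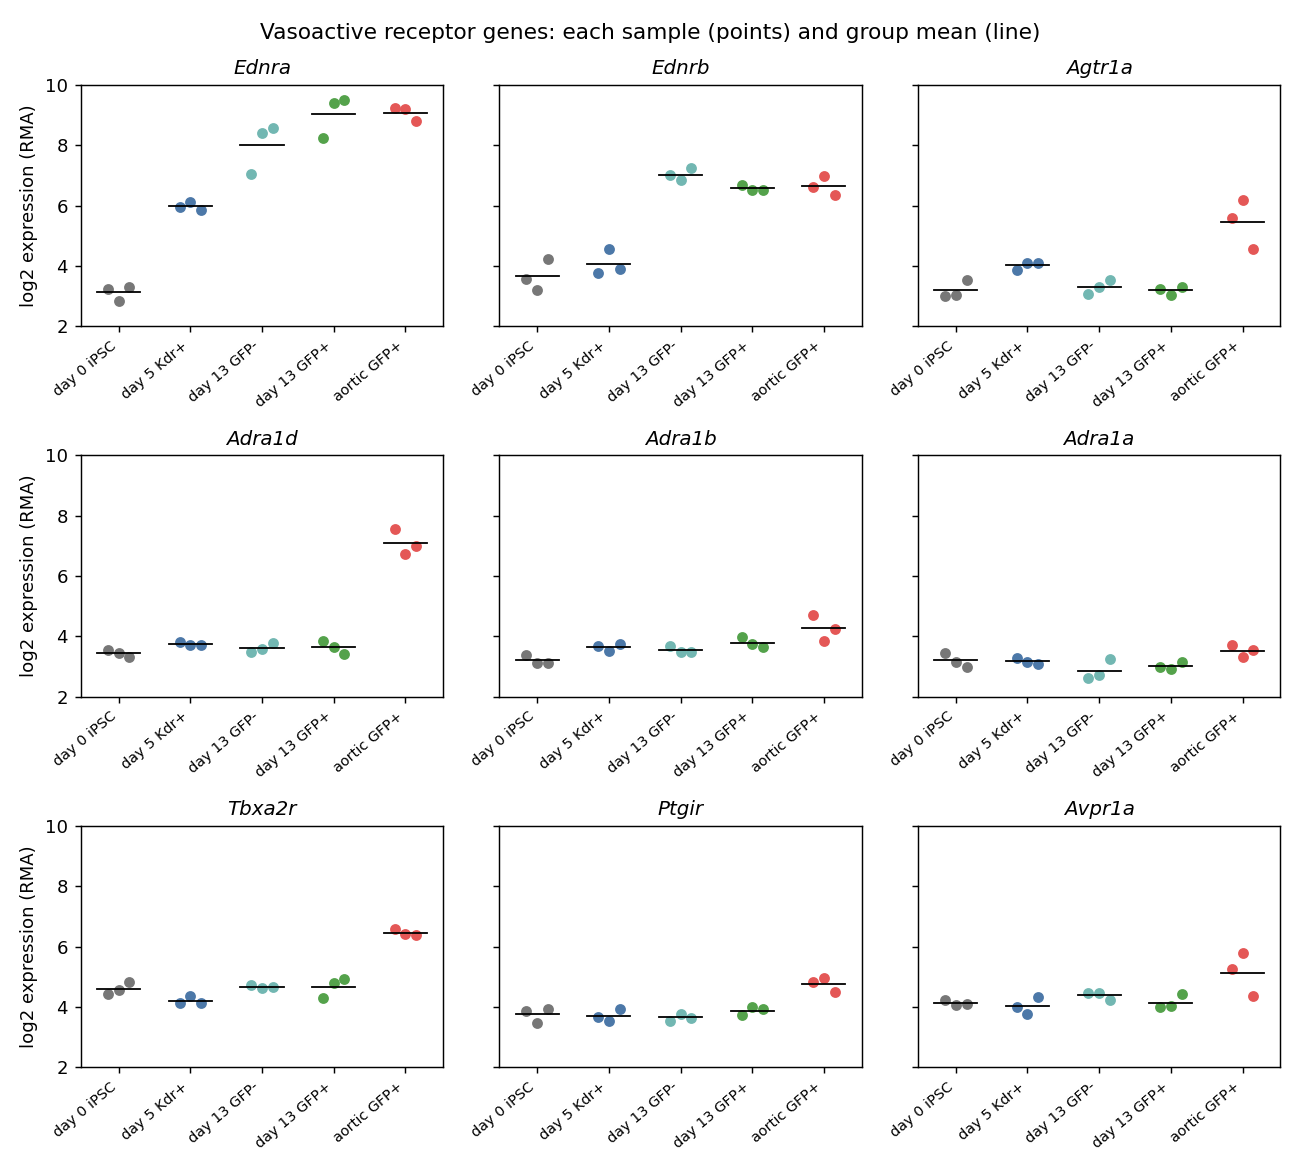
Deposited log2 expression (vertical axis) of the 9 receptors in the 5 groups (horizontal axis); each point is a sample and each line a group mean of 3 samples. Ednra climbs from a mean of 3.12 at day 0 to 9.05 in day 13 GFP+ cells, while Adra1d stays between 3.30 and 3.85 in every cultured sample and lies between 6.74 and 7.55 in the aortic samples.

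The markers followed the labels for the day 5 and aortic groups and only in part for the day 13 sorts. Kdr had a mean of 9.64 ± 0.0511 (SD, n = 3) at day 5 against 3.24 ± 0.0533 (SD, n = 3) at day 0. The mean of 9 smooth muscle markers lay between 9.99 and 10.16 in the aortic samples, between 6.74 and 7.13 in the day 13 GFP+ samples and between 6.41 and 6.77 in the GFP- samples. Acta2 reached 11.32 ± 0.129 (SD, n = 3) in GFP+ and 10.67 ± 0.447 (SD, n = 3) in GFP- cells, a difference of 0.65 that was not called (adjusted p = 0.151, limma), although the reporter is named for this gene. Of the 9 markers 1 was called higher in GFP+ than in GFP- cells, the actin-binding protein gene Tagln by 1.03 (adjusted p = 0.00167, limma), and 1 lower. The lower one was Myocd, a coactivator of smooth muscle genes, at 5.53 ± 0.278 against 6.97 ± 0.112 (SD, n = 3 each, adjusted p = 3.34e-05, limma). Myh11, the smooth muscle myosin heavy chain, was at 11.03 ± 0.071 (SD, n = 3) in the aortic samples and at 4.64 ± 0.243 (SD, n = 3) in day 13 GFP+ cells, so the GFP+ fraction lacked the aortic level of this defining marker. Of 7 cardiomyocyte markers, 2 were called higher in GFP+ and 3 in GFP- cells than at day 5, and 0 lower. Of all probe sets 14.3% and 12% were called higher and 16.9% and 13.9% lower. The cardiomyocyte marker Tnnt2 had a mean of 9.43 in GFP+, 9.36 in GFP- and 5.8 in aortic cells. As a guide to the floor of the array, 1065 probe sets of olfactory receptors had group medians between 1.87 and 2.12 and 95th percentiles between 3.63 and 3.96. Several receptors and list genes below, among them Trpc6, Npy1r and Enpep, have cultured values within that range. A difference or fold against such a group is one of array signal and may understate the difference in RNA. Its size is therefore not read as a ranking of genes, also where list genes are named by their largest differences. In these bulk samples, fewer cells of a type and less RNA per cell cannot be told apart.

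The promoter windows are shown for Ednra, Ednrb, Avpr1a and Ptgir. The endothelin receptors both rose from day 5 to day 13, and Ednra also from day 0 to day 5. Avpr1a and Ptgir were higher in aortic cells, as were Tbxa2r and Adra1b, whose windows are not printed. RefSeq windows (build GRCm38.p6) were matched by Entrez Gene ID for 6 of the 9 genes, with 8 windows in all, and each window is the 250 bases before an annotated start, read 5′ to 3′ on the strand of the gene. Capitals mark matches to TATAAA or GGGCGG.
Ednra: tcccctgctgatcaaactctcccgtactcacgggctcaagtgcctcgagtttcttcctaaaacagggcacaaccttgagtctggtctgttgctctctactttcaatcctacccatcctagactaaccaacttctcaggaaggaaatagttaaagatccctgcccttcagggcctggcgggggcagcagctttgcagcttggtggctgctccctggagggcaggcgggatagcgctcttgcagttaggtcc
Ednrb: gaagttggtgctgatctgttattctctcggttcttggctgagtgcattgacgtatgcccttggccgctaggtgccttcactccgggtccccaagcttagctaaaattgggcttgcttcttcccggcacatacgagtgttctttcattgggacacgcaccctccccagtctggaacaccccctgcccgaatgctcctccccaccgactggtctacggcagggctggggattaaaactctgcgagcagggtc
Avpr1a: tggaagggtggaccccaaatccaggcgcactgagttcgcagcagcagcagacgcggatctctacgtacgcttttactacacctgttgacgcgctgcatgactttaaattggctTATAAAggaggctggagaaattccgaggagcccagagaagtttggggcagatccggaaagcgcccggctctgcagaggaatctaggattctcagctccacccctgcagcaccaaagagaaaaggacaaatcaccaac
Ptgir: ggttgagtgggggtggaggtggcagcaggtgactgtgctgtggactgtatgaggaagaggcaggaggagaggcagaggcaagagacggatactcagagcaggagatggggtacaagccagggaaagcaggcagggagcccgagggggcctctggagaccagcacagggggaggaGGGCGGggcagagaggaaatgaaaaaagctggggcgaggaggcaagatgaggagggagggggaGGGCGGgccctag
The Ednra window is at chr8:77724453-77724702 on the minus strand, the Ednrb window at chr14:103843702-103843951 on the minus strand, the Avpr1a window at chr10:122448249-122448498 on the plus strand and the Ptgir window at chr7:16906240-16906489 on the plus strand. The search covered both strands for TATAAA, for GGGCGG, for TGANTCA and for the CArG box, the site of serum response factor. TATAAA was found in the Avpr1a window, starting 137 bases before the start, and in 12.4% of all 32851 windows. GGGCGG was found in the Ptgir window at 76 and 13 bases before the start, in 1 Adra1b window, and in 32.7% of all windows. A second Adra1b window held TGANTCA, as did 6.75% of all windows, and the CArG box was in 0 of the 8 windows and in 1.47% of all windows. The Ednra, Ednrb and Tbxa2r windows held no match to any of these. The matches describe letters in short windows and show no use of a site.

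Ednra, the endothelin A receptor, rose at each step of the differentiation. At day 0 its values were 3.23, 2.83 and 3.31, and at day 5 they were 5.94, 6.10 and 5.86, clear of every day 0 sample. The day 13 GFP- samples had 7.04, 8.41 and 8.57, the day 13 GFP+ samples 8.24, 9.40 and 9.50, in the order of replicates 3, 5 and 6. The aortic samples had 9.23, 9.20 and 8.81. Every day 5 sample lay below every day 13 sample, while the day 13 GFP+ and aortic samples overlapped. From day 0 to day 5 the increase was 2.84 ± 0.355 (SE, log2), or 7.18-fold (adjusted p = 1.3e-05, limma, n = 3 per group). From day 5 to day 13 the GFP+ cells gained 3.08, or 8.46-fold (adjusted p = 4.4e-06, limma), and the GFP- cells gained 2.04, or 4.11-fold (adjusted p = 0.000376, limma). Over the whole course the GFP+ cells stood 5.93 above iPSCs on the log2 scale (adjusted p = 2.18e-09, limma). The day 0 mean of 3.12 lies below the day 0 olfactory 95th percentile of 3.84, so the sizes of both differences against day 0 are best read as lower bounds.

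Ednrb, the endothelin B receptor, rose later. Its values were 3.57, 3.20 and 4.24 at day 0 and 3.78, 4.55 and 3.90 at day 5, and these groups overlapped. At day 13 they were 7.01, 6.83 and 7.24 in GFP- and 6.69, 6.51 and 6.50 in GFP+ cells, and in the aortic samples 6.62, 6.98 and 6.36. All day 13 and aortic samples lay above all earlier ones. The difference of 0.41 ± 0.248 (SE, log2) between day 5 and day 0 was not called (adjusted p = 0.275, limma), but without the day 0 sample numbered 6, the highest of its group, it was 0.69 and called (adjusted p = 0.0427, limma). From day 5 the GFP- cells rose by 2.95, or 7.74-fold (adjusted p = 3.1e-07, limma), and the GFP+ cells by 2.49, or 5.64-fold (adjusted p = 9.31e-07, limma).

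Between day 0 and day 5, 2 of the 9 receptors were called, Ednra and Agtr1a, both higher, beside 28.8% of all probe sets called in either direction, 14.9% higher and 13.9% lower. Their groups did not overlap for 5 of the 9, beside 46% of all probe sets. Between day 5 and day 13 GFP- cells 3 of 9 were called, all higher (Ednra, Ednrb and Tbxa2r), with 26% of all probe sets called, 12% higher and 13.9% lower. Between day 5 and day 13 GFP+ cells 4 of 9 were called, of which Agtr1a fell and the same 3 rose. Here 31.2% of all probe sets were called, 14.3% higher and 16.9% lower. The shares called in either direction lie near the background. From day 5 to day 13 the share called higher lies above the background, but rests on 3 genes. The counts by themselves do not set the receptors apart. The gains of the endothelin receptors from day 5 to day 13 were called in all alternatives run.

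The day 13 sorts were compared to see whether receptor levels followed the reporter. In the fit without pairing, 0 of the 9 receptors were called between GFP+ and GFP- cells (limma), 1 had an unadjusted p under 0.05, and 4.53% of all probe sets were called, 2.02% higher and 2.52% lower. Samples of the sorts that carry the same number deviated together, with correlations between 0.397 and 0.597 over all probe sets. The difference was therefore also fitted with the replicate number as a block. Numbers 5 and 6 across the sorts also correlated, at 0.278 and 0.345, so the pairing is uncertain. Ednra was higher in GFP+ cells in each of the 3 pairs, by 1.20, 1.00 and 0.93 for numbers 3, 5 and 6. Its mean difference of 1.04, or 2.06-fold, had a 95% interval of 0.29 to 1.80 and an adjusted p of 0.132 without the block (limma). With the replicate block the interval was 0.72 to 1.37 and the difference was called (adjusted p = 0.000784, limma), 1 of 9 receptors beside 7.13% of all probe sets. Both day 13 samples numbered 3 had the lowest Ednra value of their sort. Leaving out 1 sample without the block moved the difference between 0.56, without the GFP- sample numbered 3 (adjusted p = 0.404, limma), and 1.45, without the GFP+ sample numbered 3 (adjusted p = 0.0216, limma), the only one of the 6 that was called. Without both samples numbered 3 it was 0.96 and called (adjusted p = 0.00975, limma). Of 15 alternatives 10, all without the block, did not give a call, with adjusted p up to 0.428 (limma). With the block and without both samples numbered 3 the difference was called (adjusted p = 0.0152, limma). The samples numbered 3 also had the lowest means of their sort in the smooth muscle, fibroblast and cardiomyocyte lists. In the mesoderm, epithelial, leukocyte and pluripotent lists they had the highest. The part of these lists in the Ednra values was not tested.

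Ednrb ran the other way in the same pairs. It was lower in GFP+ cells by 0.31, 0.32 and 0.74 for numbers 3, 5 and 6, and the samples of the sorts did not overlap, as was so for 1 of the 9 receptors and for 19.5% of all probe sets. The mean difference of -0.46 (95% interval -0.99 to 0.07) was not called, with an adjusted p of 0.441 without and 0.411 with the replicate block (limma). The sorts also differed in markers of other cell types, beside 2.02% of all probe sets called higher and 2.52% lower in GFP+ cells. Of 7 pericyte markers 2 were called higher, Cspg4 at 6.00 against 5.02 and Pdgfrb at 8.57 against 7.50, with sample means of the list of 5.47 to 5.60 against 5.07 to 5.24. All 6 epithelial markers were called lower in GFP+ cells, with sample means of 4.73 to 5.13 against 6.88 to 7.02 in GFP- cells. So were 5 of 6 visceral endoderm markers, with means of 3.93 to 4.06 against 5.48 to 5.90, and 3 of 8 endothelial markers, with means of 4.28 to 4.44 against 4.97 to 5.15. The part of these cells in the receptor values was not tested. The 7 remaining receptors differed between the sorts by at most 0.23 on the log2 scale in either direction.

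**Figure D2:**
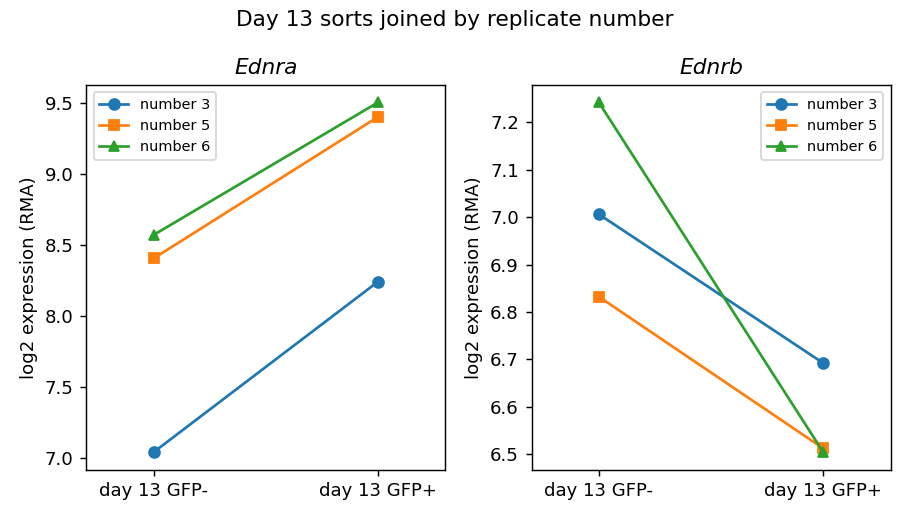
Log2 expression (vertical axis) of Ednra and Ednrb in the day 13 GFP- and GFP+ sorts (horizontal axis), with a line joining the samples that carry the same replicate number (3, 5 or 6). Each of the 3 Ednra lines rises towards GFP+, by 0.93 to 1.20, and each Ednrb line falls, by 0.31 to 0.74.

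The next question was how far the cultured cells had come towards aortic SMCs. Against day 13 GFP+ cells, 7 of the 9 receptors were called higher in the aortic samples and 0 lower, all but Ednra and Ednrb. Of all probe sets 17.7% were called higher, 19.5% lower and 37.2% in either direction. The groups did not overlap for 5 of the 9, beside 44.9% of all probe sets. The median difference of the 9 receptors was 0.88, against 0.07 over all probe sets. Against day 13 GFP- cells, 8 of 9 were called higher, all but Ednrb, with 20.2% of all probe sets called higher and 41.9% in either direction, and a median of 1.07 against 0.09. For 7 of the 9 these groups did not overlap, beside 47% of all probe sets. Both comparisons use the same aortic samples. The aortic samples exceeded each of the 4 cultured groups by a called difference for 6 receptors, Agtr1a, Adra1b, Adra1d, Avpr1a, Ptgir and Tbxa2r, and for 10.9% of all probe sets.

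**Figure D3:**
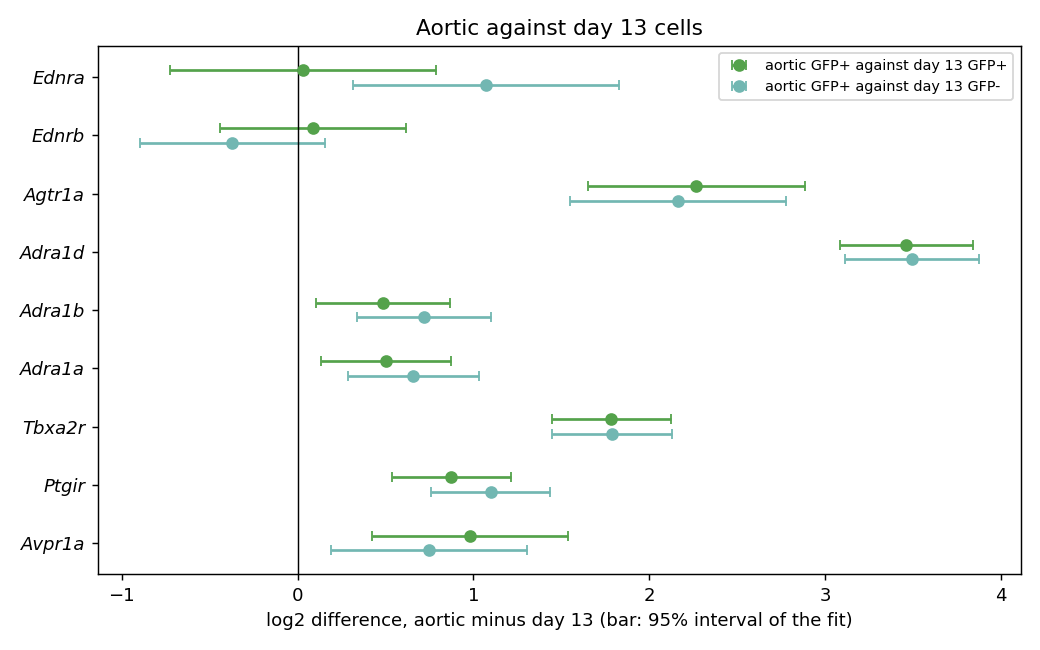
Log2 difference (horizontal axis) of aortic samples minus day 13 GFP+ and minus day 13 GFP- samples for each of the 9 receptors, with 95% intervals from the fit over 15 samples. Adra1d lies at 3.46 and 3.49, and the interval of Ednra against GFP+ cells runs from -0.72 to 0.79.

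For the endothelin receptors the mean aortic level was close to that of day 13 GFP+ cells. Ednra was 0.03 higher in aortic than in GFP+ cells, with a 95% interval from -0.72 to 0.79 (adjusted p = 0.956, limma). A difference of up to about that size in either direction is therefore not excluded by these samples. The sign turned, to -0.02 with each array centred on its median, -0.23 with array weights and -0.37 without the GFP+ sample numbered 3. Against GFP- cells the aortic level of Ednra was higher by 1.07, or 2.10-fold (adjusted p = 0.0237, limma). That call rested on few samples: the difference was 0.59 without the GFP- sample numbered 3 (adjusted p = 0.122), 1.00 without aortic sample 1 (adjusted p = 0.0629) and 1.01 without aortic sample 2 (adjusted p = 0.0673, all limma). It was also not called with array weights, at 0.65, or with only the 2 groups fitted (adjusted p = 0.0549, limma). Ednrb differed from the aortic samples by 0.09 in GFP+ cells (95% interval -0.44 to 0.61, adjusted p = 0.815, limma) and by -0.37 in GFP- cells (adjusted p = 0.247, limma). In the order of its group means, the day 13 GFP-, aortic and day 13 GFP+ neighbours did not differ by a called amount.

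Adra1d, the alpha-1D adrenoceptor, was far higher in the aortic samples than in any cultured group. Its aortic values were 7.55, 6.74 and 7.01. The day 13 GFP+ samples had 3.85, 3.64 and 3.43, the GFP- samples 3.47, 3.57 and 3.79, the day 5 samples 3.81, 3.70 and 3.71, and the day 0 samples 3.56, 3.44 and 3.30. No cultured sample came near the aortic range, and all lay within or below the range of 95th percentiles of the olfactory receptor probe sets. The aortic level was higher by 3.46 ± 0.178 (SE, log2), or 11-fold, than in GFP+ cells (adjusted p = 4.44e-10, limma) and by 3.49, or 11.3-fold, than in GFP- cells (adjusted p = 3.16e-10, limma). None of the differences between neighbouring cultured groups was called. The call against GFP+ cells held under every alternative run, with differences between 3.23 and 3.64. The filter on low values is not counted here, since Adra1d passed it through its aortic values.

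The 2 other alpha-1 adrenoceptors, which bind the same noradrenaline, were called higher in the aortic samples, but the calls against GFP+ cells were lost when single samples were left out. Adra1b had aortic values of 4.71, 3.85 and 4.26, and its day 13 GFP+ values of 3.97, 3.75 and 3.63 overlapped them. The difference of 0.49 ± 0.178 (SE, log2), or 1.40-fold, was called (adjusted p = 0.0431, limma). Without aortic sample 1 it was 0.27 (adjusted p = 0.201), and it was also lost without aortic sample 3 (adjusted p = 0.0813), GFP+ sample 5 (0.103) or GFP+ sample 6 (0.143, all limma). Against GFP- cells the difference of 0.72, or 1.65-fold, was called (adjusted p = 0.00402, limma) under all alternatives run. Adra1a had aortic values of 3.72, 3.30 and 3.54 and GFP+ values of 3.00, 2.90 and 3.16, all near the floor. Its aortic samples lay above the GFP+ samples, by 0.50 ± 0.174 (SE, log2) or 1.42-fold (adjusted p = 0.0331, limma). That call was lost without GFP+ sample 3 (adjusted p = 0.0737), GFP+ sample 5 (0.110), aortic sample 1 (0.112) or aortic sample 3 (0.0744), and for both genes under median centring and cyclic loess. In all, the calls against GFP+ cells were missing in 8 of 12 alternatives for Adra1a and in 7 of 12 for Adra1b. Against GFP- cells Adra1a was higher in the aortic samples by 0.66, or 1.58-fold (adjusted p = 0.00617, limma), a call lost under cyclic loess (0.0621) and with array weights (0.0813). The aortic level of Adra1a did not differ by a called amount from day 0 (0.32, adjusted p = 0.149, limma) or day 5 (0.35, adjusted p = 0.115, limma).

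Agtr1a, the main receptor for angiotensin II in vessels, had aortic values of 5.60, 6.19 and 4.57. Its day 13 values were 3.25, 3.02 and 3.29 in GFP+ and 3.06, 3.30 and 3.52 in GFP- cells. The aortic samples spread over 1.62 on the log2 scale, yet each lay above every cultured sample. The difference was 2.27 ± 0.289 (SE, log2), or 4.81-fold, against GFP+ cells (adjusted p = 1.2e-05, limma) and 2.16, or 4.47-fold, against GFP- cells (adjusted p = 1.64e-05, limma), and the first stayed between 1.90 and 2.71 under the alternatives. Earlier in culture Agtr1a was at 3.01, 3.02 and 3.53 on day 0 and at 3.85, 4.11 and 4.09 on day 5. It thus rose by 0.83 to day 5 (adjusted p = 0.042, limma) and fell by 0.83 from there to the day 13 GFP+ cells (adjusted p = 0.039, limma). Both calls were marginal. The first was lost with the replicate block (adjusted p = 0.0585) and without day 0 sample 3 (0.126), day 0 sample 5 (0.132) or any of the day 5 samples numbered 3, 5 and 6 (0.0608, 0.117 and 0.110). The second was lost with the block (0.0602), and without any 1 of the 3 day 5 samples (0.0564, 0.108 and 0.104) or of the 3 GFP+ samples (0.0679, 0.121 and 0.0658, for numbers 3, 5 and 6). In all, 8 of 13 alternatives did not give the second call.

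The mouse has a close copy of this gene, Agtr1b, and array probes may not keep the copies apart, so each value is uncertain as to its gene. Agtr1b had a mean of 4.64 ± 0.545 (SD, n = 3) in the aortic samples, ranging from 4.04 to 5.11, against 2.99 ± 0.131 (SD, n = 3) in GFP+ cells. That difference of 1.65 was called (adjusted p = 1.28e-05, limma). At day 5 Agtr1b was at 3.03 ± 0.132 (SD, n = 3), next to 3.08 ± 0.247 (SD, n = 3) at day 0, without the step seen for Agtr1a. Agtr2, the second angiotensin II receptor type, had group means between 2.90 and 3.10.

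Tbxa2r, the receptor of the constrictor and platelet activator thromboxane, was tight in the aorta and higher there. Its aortic values were 6.59, 6.42 and 6.37, its GFP+ values 4.29, 4.80 and 4.92 and its GFP- values 4.73, 4.62 and 4.66. No aortic sample overlapped a cultured one. The aortic level was higher by 1.78 ± 0.159 (SE, log2), or 3.44-fold, than in GFP+ cells (adjusted p = 2.43e-07, limma) and by 1.79, or 3.45-fold, than in GFP- cells (adjusted p = 1.96e-07, limma). In culture its values were 4.41, 4.57 and 4.84 at day 0 and 4.13, 4.35 and 4.12 at day 5. From day 5 it rose by 0.47 in each day 13 sort (adjusted p = 0.033 for GFP+ and 0.041 for GFP-, limma). These small rises were not called with each array centred on its median (0.096 and 0.106), and the GFP- call was lost with the replicate block (0.0632). The GFP+ call was lost without day 5 sample 3 (0.105) or 6 (0.109) or GFP+ sample 5 (0.124) or 6 (0.170), and the GFP- call without day 5 sample 3 (0.124) or 6 (0.130) or GFP- sample 3 (0.0947), 5 (0.0742) or 6 (0.0889). In all, the GFP+ call was missing in 6 of 14 alternatives and the GFP- call in 7 of 14.

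Ptgir, the receptor for the relaxant prostacyclin, had aortic values of 4.82, 4.94 and 4.48. Its GFP+ values were 3.72, 3.98 and 3.91, its GFP- values 3.55, 3.76 and 3.64, and its day 0 and day 5 values lay between 3.46 and 3.93. The aortic samples were above all cultured ones, whose neighbouring groups did not differ by a called amount. The difference was 0.88 ± 0.159 (SE, log2), or 1.83-fold, against GFP+ cells (adjusted p = 0.000372, limma) and 1.10, or 2.14-fold, against GFP- cells (adjusted p = 3.65e-05, limma). Under the alternatives the first lay between 0.77 and 1.01 and stayed called.

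Avpr1a, the vasopressin receptor of vascular muscle, had aortic values of 5.25, 5.77 and 4.35, a spread of 1.42. The GFP+ values were 3.99, 4.02 and 4.42 and the GFP- values 4.45, 4.47 and 4.21. Aortic sample 3 lay inside the range of the cultured samples and the other two above it. The difference was 0.98 ± 0.261 (SE, log2), or 1.98-fold, against GFP+ cells (adjusted p = 0.00739, limma) and 0.75, or 1.68-fold, against GFP- cells (adjusted p = 0.0312, limma). Without aortic sample 2 they were 0.66 (adjusted p = 0.0414) and 0.43 (adjusted p = 0.170, limma). Without aortic sample 3 the difference against GFP- cells was 1.13. In all, 6 of 13 alternatives did not call the difference against GFP- cells. Besides the fit without aortic sample 2, these included leaving out aortic sample 1 (adjusted p = 0.0804), GFP- sample 5 (0.0526) or GFP- sample 6 (0.096, all limma).

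The aortic samples also differed from cultured cells in markers of other vessel wall cells. Against GFP+ cells, 8 of 9 smooth muscle markers, 7 of 7 pericyte markers, 6 of 8 endothelial markers, 6 of 8 leukocyte markers and 3 of 6 fibroblast markers were called higher, and 1 fibroblast marker lower, beside 17.7% of all probe sets higher and 19.5% lower. The sample means of the endothelial list were 5.42 to 6.02 in aortic and 4.28 to 4.44 in GFP+ cells, those of the leukocyte list 4.55 to 4.99 and 3.83 to 4.06, those of the fibroblast list 7.98 to 9.09 and 5.98 to 6.77, and those of the pericyte list 7.99 to 8.29 and 5.47 to 5.60. In undifferentiated iPSCs the leukocyte list lay at 4.88 to 4.94 and the endothelial list at 4.77 to 4.81. Neither list is therefore specific to its cell type here. The leukocyte markers Ptprc and Cd52 had aortic means of 3.56 and 3.37, below the aortic olfactory 95th percentile of 3.96. Among the aortic samples, number 3 was lowest in 6 of the 9 receptors and number 2 in the other 3, the alpha-1 adrenoceptors. The endothelial list was highest in number 3, at 6.02, and the fibroblast list highest in number 2, at 9.09. The part of these markers in the receptor differences was not tested.

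The ligands and the enzymes that make or clear them were read from a list of 13 genes. Against day 13 GFP+ cells, 7 were called higher in the aortic samples and 0 lower, beside 17.7% of all probe sets higher and 19.5% lower. Enpep, an aminopeptidase that trims angiotensin II, went from 3.34 ± 0.0643 (SD, n = 3) to 7.60 ± 0.15 (SD, n = 3), Ace, which makes angiotensin II, was higher by 2.37, Edn1, the precursor of endothelin-1, by 1.64 and Lnpep, another aminopeptidase, by 1.21. Ace had already risen by 3.13 between day 5 and day 13 GFP+ cells, after a fall of 2.95 from day 0 to day 5. Agt, the source of all angiotensins, differed by 0.21 between aortic and GFP+ cells (adjusted p = 0.46, limma), and Avp, the vasopressin precursor, by -0.09 (adjusted p = 0.66, limma). In the step from day 5 to GFP+ cells 5 members rose and 3 fell, beside 14.3% and 16.9% of all probe sets. Among those that fell was Mme, the neutral endopeptidase, by 1.98.

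The prostanoid list held 10 genes, of which 3 were called higher in aortic than in GFP+ cells and 0 lower, beside 17.7% and 19.5% of all probe sets. Ptgis, prostacyclin synthase, stood at 9.48 ± 0.164 (SD, n = 3) in the aortic samples and at 5.71 ± 0.352 (SD, n = 3) in GFP+ cells, 13.6-fold apart (adjusted p = 2.56e-10, limma). Ptgs2, the inducible cyclooxygenase, was higher by 2.36 and Ptges3 by 0.40. Tbxas1, thromboxane synthase, had group means between 3.14 and 3.39 and was not called. Between the day 13 sorts the same list had 3 members higher in GFP+ cells, Ptgs1 by 1.74, Pla2g4a by 1.63 and Ptgs2 by 1.61, and 0 lower, beside 2.02% and 2.52% of all probe sets. From day 5 to GFP+ cells 5 rose, among them Pla2g4a by 4.31 and Ptgs2 by 3.87, and 2 fell, beside 14.3% and 16.9% of all probe sets.

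Among 50 other vasoactive receptors and receptor partners, 16 were called higher in aortic than in GFP+ cells and 7 lower, beside 17.7% and 19.5% of all probe sets. Npy1r, a neuropeptide Y receptor, was at 8.83 ± 0.195 (SD, n = 3) in the aortic samples and at 3.21 ± 0.0937 (SD, n = 3) in GFP+ cells, a difference of 5.62 (adjusted p = 5.96e-14, limma). Htr1b, a serotonin receptor, was higher by 4.28 and Calcrl, the receptor of calcitonin gene-related peptide and adrenomedullin, by 2.30. The ADP receptor P2ry1 was lower by 2.86 on the log2 scale, at 3.25 in aortic and 6.11 in GFP+ cells. From day 5 to GFP+ cells 14 of the 50 rose, among them S1pr3, a sphingosine-1-phosphate receptor, by 3.08 and P2ry1 by 2.88, and 6 fell, among them the apelin receptor Aplnr, by 3.06, beside 14.3% and 16.9% of all probe sets. From day 0 to day 5 the list split into 6 higher and 6 lower, with 14.9% and 13.9% of all probe sets so called, and with Aplnr up by 3.36, the alpha-2B adrenoceptor Adra2b up by 2.14 and the protease-activated receptor F2rl1 down by 2.38. Between the sorts 2 were called higher in GFP+ cells and 3 lower, beside 2.02% and 2.52% of all probe sets, with Calcrl lower by 1.54 and Htr2b higher by 1.21.

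Downstream of the receptors, each of 4 lists had more members called higher than lower in aortic against GFP+ cells, where 17.7% of all probe sets were higher and 19.5% lower. Of 12 G protein alpha subunits 5 were called higher and 2 lower, with Gnao1 and Gnai1, of the Gi and Go class, higher by 2.23 and 2.07 (log2). Gnaq and Gna11, which couple most of the constrictor receptors, were not called, at 0.41 (adjusted p = 0.0777, limma) and 0.17 (adjusted p = 0.381, limma). Of 20 genes of the Gq and RhoA branch 11 were higher and 2 lower. The phospholipases Plcb4 and Plcb1 were higher by 3.61 and 3.26, the RhoA kinase Rock1 by 2.28 and the calcium-permeable channel Trpc6 by 1.79.

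The cyclic AMP list of 17 genes had 8 members higher and 1 lower. Adcy5, an adenylyl cyclase, was at 9.34 ± 0.284 (SD, n = 3) in the aortic samples against 3.71 ± 0.441 (SD, n = 3) in GFP+ cells, a difference of 5.63 (adjusted p = 2.63e-11, limma), and the phosphodiesterase Pde3a was higher by 3.42. Of 8 receptor kinases, arrestins and receptor-associated genes 4 were higher and 0 lower, with the kinase Grk5 higher by 2.71. The medians of these 4 downstream lists were 0.29, 0.47, 0.30 and 0.51 in the order given, against 0.07 over all probe sets. From day 5 to GFP+ cells the cyclic AMP list had 11 of 17 called higher and 2 lower, the kinase and arrestin list 1 of 8 higher and 4 lower, the alpha subunits 0 higher and 4 lower, and the Gq and RhoA branch of 20 genes 5 higher and 2 lower, beside 14.3% and 16.9% of all probe sets.

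**Figure D4:**
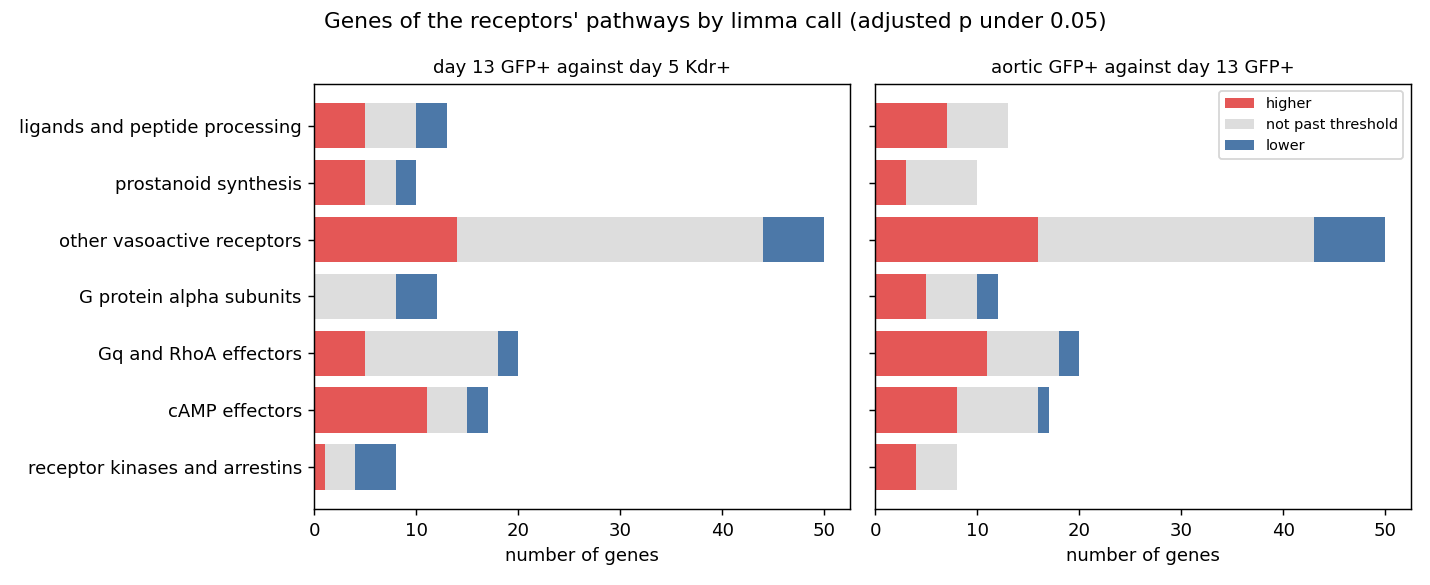
Number of genes (horizontal axis) called higher, not called and called lower in each of 7 pathway lists, for day 13 GFP+ against day 5 Kdr+ cells and for aortic against day 13 GFP+ cells. In the aortic comparison 11 of 20 Gq and RhoA genes and 16 of 50 other receptors are called higher.

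The genes whose values followed each receptor most closely over the 15 samples were named by Pearson's r, as a description in which the points share groups and so the same steps between them. For Ednra these were Gpx8 and Mfap4, a matrix protein of elastic fibres, each with r = 0.985. For Ednrb they were Afap1 (r = 0.97) and Angpt1, the ligand of the endothelial receptor Tek (r = 0.969). For Adra1d they were Myoz2 (r = 0.995) and Rasl12 (r = 0.993), and for Tbxa2r Nfkbia, the inhibitor of NF-kappaB, and Atf5, each with r = 0.986. Ptgir was closest to Plin1 (r = 0.954) and Cxcl9 (r = 0.951), Agtr1a to Fgfr1op2 (r = 0.947) and Il6ra (r = 0.946), Avpr1a to Scg3 (r = 0.924) and Ifi203-ps (r = 0.916), and Adra1b to Mettl24 (r = 0.922) and Slc8a2 (r = 0.92). Adra1a, whose group means differed by at most 0.66, was given no such genes. Between receptors, Ednra and Ednrb had r = 0.885 over the 15 samples and Adra1d and Tbxa2r r = 0.928.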

How the data were processed

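Total RNA from 15 samples was labelled with biotin and hybridised to the arrays, per the labels' protocols. The authors deposited RMA values (affy 1.36.1 in R 2.15.1, per the submitters' processing notes), taken here as log2 because of their range. The sources used here name no genome build. Of 25206 probe sets, each numbered by an Entrez Gene ID, 23740 were named through RefSeq and 1466 stayed unnamed. Of the receptors, 3 (Ednra, Adra1a and Adra1d) were named by RefSeq only and not by the platform table. Sample medians lay between 4.08 and 4.29.

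All samples were fitted in 1 limma model (3.58.1, R 4.3.3) with a mean per group, no filter and moderated variances, and p-values were adjusted over all probe sets within each comparison at a threshold of 0.05. The fit was tested on simulated data. The fit with the replicate number as a block was an alternative. Same-numbered day 13 sorts correlated in their deviations at 0.397 to 0.597, against -0.50 to 0.345 for unequal numbers. Pairs with day 0 or day 5 samples correlated at -0.09 to 0.08, so only the sorts were taken as paired, a pairing that comes from the data and not from the labels. The block was also fitted as an alternative for the other comparisons between cultured groups, where the numbers showed no such pairing. Other alternatives were array centring, cyclic loess, the 2 compared groups alone, array weights, a variance trend, a filter on low values and leaving out each sample.

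All 9 receptors are named. In each pathway list up to 4 called genes with the largest differences are named, and up to 2 genes are named by correlation for each receptor whose group means span 1 or more. Agtr1b and the genes of the lists named without a call (Agt, Avp, Tbxas1, Gnaq, Gna11, Agtr2) were chosen outside that rule, after values were seen. So were the markers Kdr, Acta2, Myh11, Tagln, Myocd, Cspg4, Pdgfrb, Tnnt2, Ptprc and Cd52. The receptors and lists were chosen with earlier results of these data known. No scan dates were used, so array batches were not examined.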

Additional observations from a re-analysis of the deposited data

How the results depend on the processing

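Between day 5 and day 0, 2 receptors were called; 5 were with only the 2 groups compared, 4 with array weights, 1 with the replicate block and 1 to 3 when 1 sample was left out, while 28.8% of all probe sets were called, and 34.7%, 37.8% and 27.2% under the first 3 alternatives. When 1 sample was left out, 2 to 3 were called between each day 13 sort and day 5, 0 to 1 between the sorts, and 5 to 7 (GFP+) and 6 to 8 (GFP-) against aortic cells. Between the sorts the count was 1 with array weights, 1 with the replicate block, and 1 without both samples numbered 3, with or without the block, an alternative chosen after seeing the data. Over all probe sets the sorts differed in 1142 called, against 459 with 2 groups, 2945 with array weights and 1798 with the block; for GFP- against day 5 array weights gave 10102 against 6542. A filter on the mean over all samples kept 5 of the 9 receptors, Adra1d through its aortic values; 3 (GFP+) and 4 (GFP-) were called against aortic cells, beside 57.1% and 62.5% of the 12603 probe sets kept, and nothing is drawn from these counts.

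The sign turned in 33 of 714 values, 0 of them called. From day 0 to day 5 Adra1a turned to 0.06 (median centring) and 0.028 (cyclic loess), and Ptgir to 0.055, 0.013 and, with array weights, 0.047. Between the sorts array weights gave -0.062 for Adra1a and -0.13 for Adra1d, and leaving out both samples numbered 3 gave -0.14 for Adra1d with or without the block. Ednra in aortic against GFP+ cells turned to -0.018 (median centring), -0.23 (array weights) and -0.37 (both left out). With 1 sample left out the ranges were, from day 0 to day 5, -0.14 to 0.10 for Adra1a, -0.25 to 0.028 for Avpr1a and -0.18 to 0.055 for Ptgir. From day 5 they were -0.15 to 0.046 for Ptgir (GFP-), -0.21 to 0.006 for Adra1d and -0.025 to 0.26 for Avpr1a (GFP+). Between the sorts they were -0.22 to 0.007 for Agtr1a, -0.074 to 0.14 for Adra1d and -0.12 to 0.19 for Tbxa2r, and for aortic against GFP+ cells -0.37 to 0.26 for Ednra and -0.076 to 0.23 for Ednrb. The cause was not tested.

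Median centring put the median difference of all probe sets from day 5 at -0.13 in GFP- and -0.11 in GFP+ cells, where it was -0.028 and -0.004, so small changes in those steps are relative to that shift. The replicate block changed the calls of Ednra between the sorts, of Agtr1a from day 0 to day 5 and from day 5 to GFP+ cells and of Tbxa2r from day 5 to GFP- cells, and of no other receptor. The precision is limited by 3 samples per group, and values near the floor limit the size of a difference.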
